A study of Mus musculus with 4 samples.

Results

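The genes described here carry the names of cytosolic ribosomal proteins, and most of them encode such proteins. They were chosen by their symbols: a name starting with Rpl or Rps followed by a number, with the copy suffixes a, x, l or y, together with Rpsa, Rplp0, Rplp1 and Rplp2. Kinases of the Rps6k family and names ending in -ps were left out. The rule found 86 of the 25239 genes in the deposited count table, of which 53 carry large subunit names and 33 small subunit names. Of the 86 members, 81 had enough counts to be tested. Rps4l and Rpl32l, which GENCODE classes as pseudogenes, are among those tested.

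RNA was sequenced from sorted cells of mouse hindlimb buds at embryonic day 11.5. All embryos were of the FVB strain, labelled wild-type in genotype apart from a reporter at the H11 locus. In that reporter a human ZRS limb enhancer carrying the 404G>A change, with the hsp68 promoter, drives mCherry, and both groups came from such embryos. The anterior group held mCherry-positive cells of the anterior hindlimb (2 libraries) and the central group mCherry-negative cells of the central hindlimb (2 libraries). The anterior group is therefore set by position and by reporter activity together, and these cannot be told apart. The labels do not say whether the libraries of a group came from separate embryos, so p-values measure only the spread between these samples, which may be technical.

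A ribosome holds one copy of nearly every ribosomal protein, and cells make these proteins in matched amounts. Their mRNAs begin with a run of pyrimidines, the TOP motif, through which the growth-control kinase mTOR regulates their translation. Ribosome assembly takes place largely in the nucleolus, where RNA polymerase I makes the ribosomal RNA precursor and a large set of assembly factors processes it. Loss of one copy of a ribosomal protein gene causes Diamond-Blackfan anaemia in people, which can include thumb malformations, and in mice Rpl38 and Rpl24 mutations alter the axial skeleton.

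Library totals ranged from 30080925 to 33257383 counts. Members took 4.44% and 4.57% of the counts of anterior 1 and 2, and 5.18% and 4.62% of central 1 and 2. Summed markers of limb mesenchyme lay between 3353 and 3532 CPM (counts per 1 M of the TMM-corrected library size) in the 4 libraries, with none of the 10 genes at 0, although 3 of the 10 were called higher and 2 lower. Markers of other cell types differed between the groups. The 14 primitive erythroid genes in the table summed to 3311 and 8437 CPM in anterior cells against 9.74 and 12.9 in central cells, and 4 of them were at 0 in both groups. The 9 myogenic genes summed to 23.0 and 12.1 CPM against 263 and 242, and the 12 cartilage genes to 533 and 395 CPM against 1810 and 1377. With sums over each whole list in brackets, 9 of 12 tested surface ectoderm genes fell and 1 rose (62.3 and 76.4 CPM against 63.9 and 193) and 6 of 10 endothelial genes fell (74.3 and 83.4 CPM against 126 and 143). Of 9 tested macrophage genes 6 rose (26.2 and 20.8 CPM against 8.44 and 8.22), and of 6 tested Schwann and neural crest genes 2 fell (15.4 and 10.6 CPM against 29.7 and 24.7). The part of these cell types in the results below was not tested. Removing the erythroid genes before scaling left the same 3 members called. That removal checks the scaling alone, because any other RNA of such cells stays in the counts. In bulk RNA, fewer cells of a type and less RNA per cell cannot be told apart.

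Most members were expressed at a high and similar level. Per kilobase of coding sequence, the 77 members with a coding length and at least 5 CPM had a median of 1168 CPM per kb, with quartiles of 960 and 1333. The highest was Rpl41, which encodes the shortest of the proteins, at 8508 CPM per kb over a coding length of only 75 bases. Its annotated exons cover 1168 bases and its mean was 638 CPM. Any reads counted outside the coding sequence raise this measure. The lowest was Rpl22l1, the paralog of Rpl22, at 160 CPM per kb. Below this lay a separate group of 8 members, each with under 100 counts in every library.

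**Figure D1:**
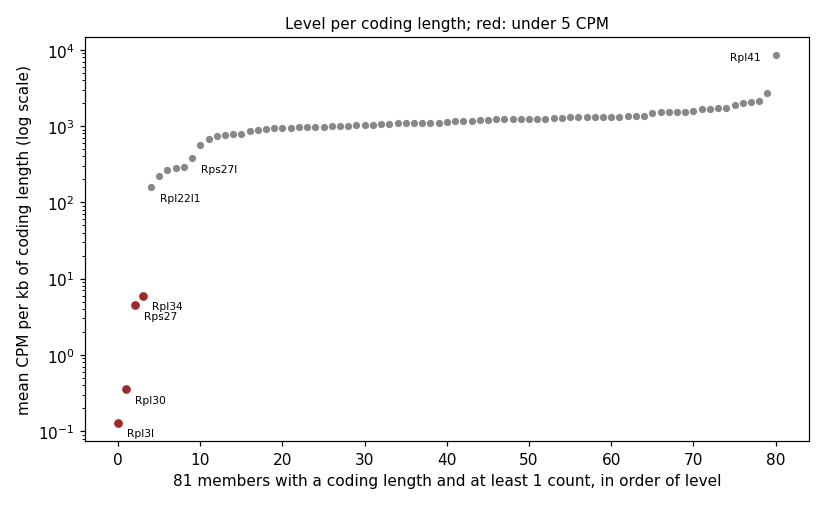
Mean CPM per kilobase of coding sequence (log scale) for the 81 members with a coding length and at least 1 count, in order of level; each point is a gene averaged over 4 libraries. Red points, under 5 CPM, are Rpl34, Rps27, Rpl30 and Rpl3l, and all other members lie at 160 CPM per kb or above.

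Of these 8 members, 3 encode paralogs known for use in particular tissues. Rpl10l and Rpl39l, which serve in male germ cells, had 0 counts in all 4 libraries, where 3 counts would correspond to 0.0899 to 0.102 CPM. Rpl3l, a striated muscle paralog of Rpl3, had 6 and 4 counts in anterior cells and 5 and 5 in central cells. Another of the 8, Rpl32l, classed as a processed pseudogene by GENCODE but as protein-coding by RefSeq, had 18 and 36 counts against 18 and 22. The broadly expressed genes of the paralog pairs were abundant, with Rpl3 at 830 and 819 CPM in anterior cells against 848 and 792 in central cells.

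The other 4 low members encode core proteins of the ribosome. Rpl26 (chr11:68901583-68906989, + strand, GRCm38) had 0 counts in all 4 libraries, as did 6539 genes of the table in all. Rpl30 (chr15:34440505-34443640, - strand) had 1 and 5 counts in anterior cells and 7 and 2 in central cells. Rps27 (chr3:90212522-90213651, - strand) had 34 and 38 counts against 42 and 26. Rpl34 (chr3:130726831-130730398, - strand) had 52 and 58 counts against 66 and 88. These counts were low in both groups alike, whereas 78 of the 86 members reached at least 1000 counts in a library.

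Each of these 4 genes shares stretches of coding sequence with another gene that the deposited table also lists. In windows of 100 coding bases (GENCODE M21 on GRCm38), Rps27 shared 100% of its windows with Rps27rt, and Rpl30 shared 61.0% with Gm12191. Rpl34 shared 46.8% with Rpl34-ps1 and Rpl26 shared 40.5% with Gm15772. The copies themselves had at most 1 count in any library. Stretches of Rpl26 and Rpl34, from GENCODE M21, are shown because a read lying within them is identical in the gene and in its copy; they are printed in lower case throughout.
Rpl26, coding bases 1 to 60, also in Gm15772: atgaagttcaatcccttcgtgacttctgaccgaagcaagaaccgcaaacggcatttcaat
Rpl34, coding bases 1 to 60, also in Rpl34-ps1: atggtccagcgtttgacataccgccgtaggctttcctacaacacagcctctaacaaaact

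Other members share coding sequence too. Among the 77 members with at least 1000 counts and a searched sequence, 71 shared a window of 100 bases with some other gene of the annotation, and 25 shared all of them. A further 11 members shared at least 25% of their windows with a gene listed in the table, in 12 pairs. In each of these pairs the listed gene reached at least 24 counts in some library. Some listed genes, such as Uimc1, are protein-coding, so their counts need not come from the shared stretch. At lower shares the counts varied. Nphs1, sharing 17.5% of the windows of Rps12, had 0 counts in every library, while Rps19-ps3, sharing 7.74% of those of Rps19, had 40 to 49. Among the 12 pairs, Rps6 shared 100% of its windows with Rps6-ps4, which had 705 and 696 counts in anterior cells and 701 and 681 in central cells. Rps6 itself had far more, at 21191 and 19494 counts in anterior cells against 21355 and 21517 in central cells. In CPM, Rps6 measured 635 and 665 against 693 and 665. How the counting treated reads that map to several genes is not given in the sources used here, so the levels of Rpl26, Rpl30, Rpl34 and Rps27 are uncertain and the reason for their low counts was not tested.

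Rps27 and its paralog Rps27l both have 252 coding bases, but their counts may not be comparable. All windows of 100 coding bases of Rps27 also occur in Rps27rt, whereas no such window of Rps27l occurs in another gene. Rps27l measured 97.5 and 101 CPM in anterior cells and 93.1 and 91.9 CPM in central cells, whereas Rps27 measured 1.02 and 1.30 CPM against 1.36 and 0.80. Per kilobase of coding sequence this was 380 CPM per kb for Rps27l and 4.45 for Rps27. The coding sequences are identical at 192 of 252 bases (76.2%). Their first 90 coding bases are shown because the differences, in capitals, separate the genes at 24 positions.
Rps27: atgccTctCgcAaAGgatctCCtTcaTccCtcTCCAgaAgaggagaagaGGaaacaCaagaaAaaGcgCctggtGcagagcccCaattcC
Rps27l: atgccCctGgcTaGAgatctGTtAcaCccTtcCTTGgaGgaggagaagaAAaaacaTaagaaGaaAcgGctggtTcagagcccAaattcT

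Between anterior and central cells the ribosomal protein genes differed little. By the quasi-likelihood test of edgeR, at a Benjamini-Hochberg adjusted p under 0.05, 3 of 81 members (3.70%) were called, where 22.9% of all 14610 tested genes were. Of these, 1 was higher in anterior cells (10.7% of all genes) and 2 were lower (12.3% of all genes). The median log2 fold change of the members was -0.09, against -0.01 over all genes, and 65 of 81 members (80.2%) lay below 0, against 51.2% of all genes. The median was -0.09 for the 48 tested large subunit genes, 2 of which were called, and -0.09 for the 33 small subunit genes, 1 of which was called.

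The intervals of these differences were narrow beside a 1.5-fold change but wide beside the differences themselves. Their median half-width was 0.17 on the log2 scale, against a median size of the members' log2 fold change of 0.10. For 78 of the 81 members the whole 95% interval of the fold change lay within 1.5-fold in either direction, which held for 52.6% of all genes. The 3 exceptions were Rpl34, Rps27 and Rpl32l, all with low counts. Among the 2656 genes at 100 CPM or more, 28.3% were called, against 3 of 73 members (4.11%). The median size of the log2 fold change among these abundant genes was 0.14, and among these members 0.10.

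**Figure D2:**
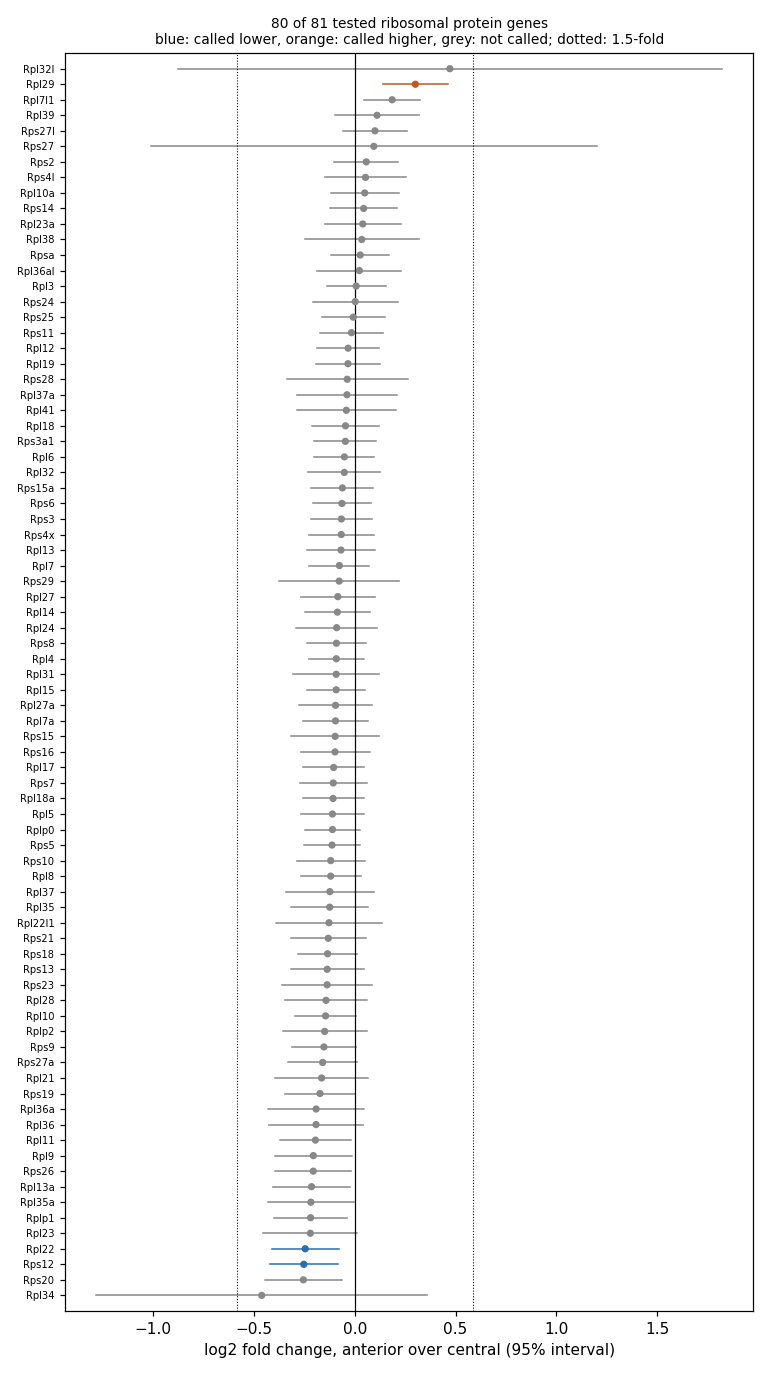
Log2 fold change of anterior over central cells with its 95% interval for the tested members, with 1 of the 81 not drawn. Orange marks Rpl29, called higher, blue marks Rpl22 and Rps12, called lower, and the dotted lines mark 1.5-fold; most members lie left of 0.

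Rpl29 (chr9:106429454-106431568, + strand), a large subunit protein, was the 1 member that rose. It measured 147 and 162 CPM in anterior cells against 124 and 126 CPM in central cells. Both anterior libraries lay above both central ones. The group levels were 154 ± 10.6 and 125 ± 0.84 CPM (SD, n = 2 each), and the log2 difference was 0.30 ± 0.071 (SE; edgeR adjusted p 0.0168). Rpl29 shares 78.2% of its windows of 100 coding bases with other genes, among them Uimc1, so its count is uncertain. The call was lost without anterior 2, at an adjusted p of 0.189.

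Rps12 and Rpl22 fell. Rps12 (chr10:23785183-23787275, - strand), a small subunit protein, measured 743 and 791 CPM in anterior cells against 964 and 864 CPM in central cells. The groups did not overlap, at 767 ± 34.1 and 914 ± 70.6 CPM (SD, n = 2 each), and the log2 fold change was -0.25 ± 0.074 (SE; edgeR adjusted p 0.0392). All of its windows of 100 coding bases also occur in other genes, and 13.7% of its exon bases overlap small RNA genes on the same strand, so its count is uncertain. Rpl22 (chr4:152325742-152334071, + strand), a large subunit protein whose loss in mice affects T-cell development, measured 318 and 341 CPM against 411 and 370 CPM. Its groups did not overlap either, at 330 ± 16.1 and 391 ± 29.5 CPM (SD, n = 2 each), and the log2 fold change was -0.25 ± 0.073 (SE; edgeR adjusted p 0.0423). No window of 100 coding bases of Rpl22 occurs in another gene, although 31.0% of its windows of 50 bases do. Both calls were lost without anterior 1, anterior 2 or central 1, with adjusted p between 0.0854 and 0.241 for Rps12 and between 0.0838 and 0.286 for Rpl22.

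None of the members chosen for known roles in human anaemia, skeletal patterning or p53 signalling was called. Rpl5 and Rpl11, which bind Mdm2 with the 5S RNA, measured 671 and 677 CPM against 764 and 692 for Rpl5, and 485 and 525 CPM against 613 and 543 for Rpl11. Central 1 was the highest library for both genes. Their log2 fold changes were -0.11 and -0.20, with edgeR adjusted p of 0.293 and 0.109. Rps19, the gene most often mutated in Diamond-Blackfan anaemia, measured 416 and 423 CPM against 506 and 440, a log2 fold change of -0.17 (edgeR adjusted p 0.147).

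Rps20, whose mutation darkens the skin of mice, had the lowest adjusted p among the members not called. It measured 517 and 563 CPM in anterior cells against 692 and 597 in central cells, without overlap, and its log2 fold change of -0.25 had an edgeR adjusted p of 0.0599. It was called in 7 of the 14 alternatives that keep all libraries, DESeq2's Wald test among them (adjusted p 0.0183), and also without central 2. Rps7, Rps26 and Rpl35a, all mutated in Diamond-Blackfan anaemia, had log2 fold changes of -0.11, -0.21 and -0.22, with adjusted p between 0.111 and 0.342. The anterior libraries of Rps26 and Rpl35a lay below the central ones, whereas those of Rps7 overlapped with them.

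Rpl38, needed for Hox protein translation in mouse embryos, measured 145 and 168 CPM in anterior cells against 174 and 132 CPM in central cells. The spread within each group exceeded the distance between the groups, with a log2 fold change of 0.03 and a 95% interval of -0.25 to 0.32. Rpl24, mutated in Belly spot and tail mice, measured 336 and 383 CPM against 409 and 356, again with overlap, and a log2 fold change of -0.09 (interval -0.29 to 0.11). The sign of both fold changes depended on single libraries: without central 1 it was 0.25 for Rpl38 and 0.018 for Rpl24, and without central 2 it was -0.15 and -0.19.

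The stalk and surface proteins gave similar values. Rplp0, the base of the stalk, measured 1452 and 1467 CPM against 1611 and 1541 CPM. Rplp1 measured 621 and 681 CPM against 802 and 712, and Rplp2 473 and 511 CPM against 596 and 495. Anterior values lay below central ones for Rplp0 and Rplp1 and overlapped for Rplp2, with log2 fold changes of -0.11, -0.22 and -0.15 and edgeR adjusted p of 0.234, 0.0814 and 0.286. Rpsa, which also binds laminin, measured 1782 and 1837 CPM against 1829 and 1722, a log2 fold change of 0.03 that overlapped between groups. Rpl10, at the ribosome's active centre, had a log2 fold change of -0.14 and Rps6, the mTOR-pathway phosphorylation target, one of -0.06. Neither was called, at adjusted p of 0.158 and 0.526.

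Among the paralog pairs described here, Rpl22 was the only gene called. Rpl22l1, which can take the place of Rpl22, measured 51.5 and 60.1 CPM in anterior cells against 67.0 and 55.0 in central cells, with overlap and a log2 fold change of -0.13 (interval -0.39 to 0.14). Rpl7l1, a paralog with a part in assembly, measured 172 and 174 CPM against 152 and 152. Its anterior libraries lay above the central ones and its log2 fold change of 0.19 had an edgeR adjusted p of 0.0603, whereas Rpl7 overlapped between groups at -0.08. Rps27l had a log2 fold change of 0.10 (adjusted p 0.343), also without overlap. Rps4l, which RefSeq calls a transcribed pseudogene, measured 56.8 and 55.0 CPM against 56.9 and 50.9, and Rps4x 978 and 1030 against 1103 and 999. Rpl36al overlapped between groups at a log2 fold change of 0.02 and Rpl36a at -0.19. Rpl39, the somatic partner of Rpl39l, measured 198 and 220 CPM against 210 and 177, with a log2 fold change of 0.11.

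Over all members, 25 of 81 (30.9%) had both anterior libraries below both central ones, where 32.6% of all genes did. In the other direction 3 members (3.70%), namely Rpl29, Rpl7l1 and Rps27l, had both anterior libraries above, where 30.8% of all genes did. The remaining 53 members overlapped, so 28 did not, where 63.5% of all genes did not. Apart from Rpl34, Rps27 and Rpl32l, the members' log2 fold changes ran from -0.25 (Rps20) to 0.30 (Rpl29). At an edgeR unadjusted p under 0.05 there were 11 of 81 members. At least 22.9% of all genes met that threshold, because 22.9% were called after adjustment. Beyond those called, the members were Rps20, Rpl7l1, Rplp1, Rpl13a, Rpl11, Rps26, Rpl9 and Rpl35a.

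The 4 libraries took different places among the members. Central 1 was the highest library for 70 of 81 members, where it was so for 27.8% of all genes, and anterior 1 was the lowest for 57, against 22% of all genes. The ratio of central 1 to central 2 had a median of 1.12 over the members and lay above 1 for 77 of 81, while over all genes it lay above 1 for 50.5%. The ratio of anterior 1 to anterior 2 had a median of 0.933 and lay below 1 for 77 of 81. The median distances within the groups were no smaller than the median distance between them.

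**Figure D3:**
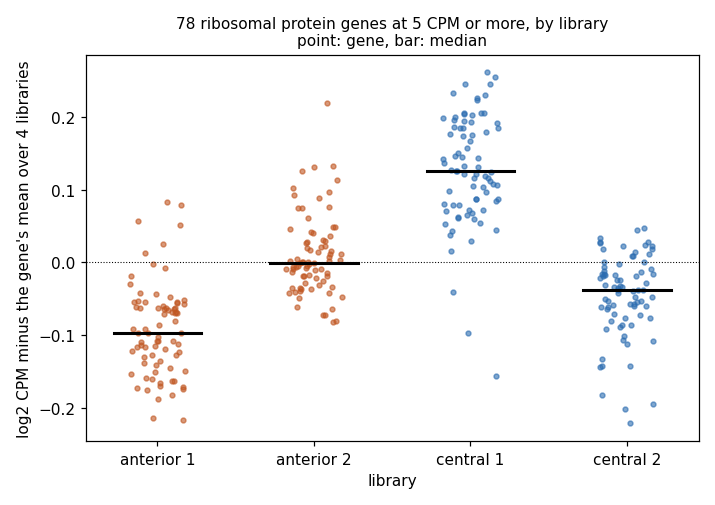
Log2 CPM minus the gene's mean over the 4 libraries for the 78 members at 5 CPM or more (points), with the median of each library (bars). Central 1 lies highest and anterior 1 lowest, while anterior 2 and central 2 lie between them and overlap.

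Leaving out single libraries moved the fold changes accordingly. Without central 2 the median log2 fold change of the members was -0.17, against -0.0058 over all genes, and 77 members lay below 0. Without central 1 it was -0.0073, against -7.2e-05 over all genes, and only 44 members lay below 0. Without anterior 1 it was -0.044, with 58 members below 0, and without anterior 2 it was -0.14, with 72 below 0. Each of these fits has 1 residual degree of freedom, and the lone library is assumed to vary like the other group.

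The distance between replicates was larger for the shorter members. Across 77 genes, which share the same libraries and are not independent, coding length had a Spearman rho of -0.64 with the ratio of central 1 to central 2 and of 0.70 with the ratio of anterior 1 to anterior 2. The 25 shortest, of at most 399 coding bases, had a median central ratio of 1.19 and a median anterior ratio of 0.901. The 25 longest, of at least 582 coding bases, had 1.08 and 0.958. The log2 fold change between groups followed length less, with a rho of 0.17 and medians of -0.12 in the shortest and -0.08 in the longest genes. With offsets for length and GC content in each library, 10 members were called, 2 higher and 8 lower, with the first 3 among them. Mitochondrial ribosomal protein genes went from 1 higher to 4 higher and 1 lower, while p53 targets kept 4 higher and 6 lower. The share of all genes called with these offsets is not given here, so whether the gain is particular to the members was not tested.

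**Figure D4:**
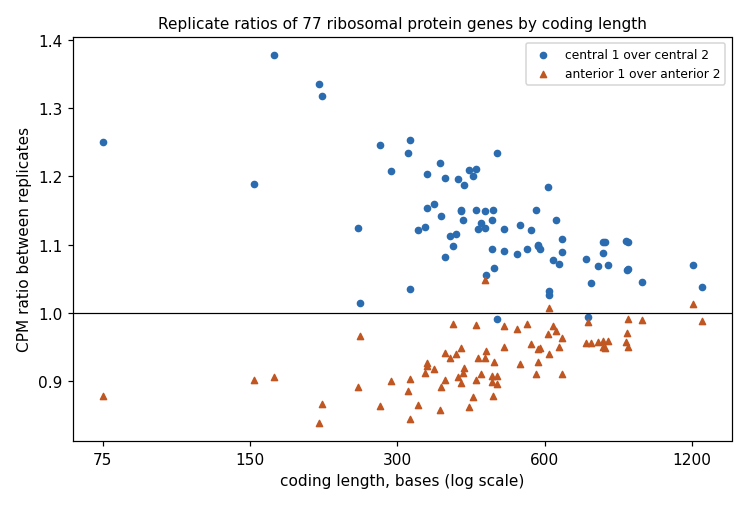
CPM ratio between replicates against coding length (log scale) for 77 members; circles show central 1 over central 2 and triangles anterior 1 over anterior 2. Circles lie mostly above 1 and triangles mostly below, and both approach 1 as length increases.

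Genes that make the ribosome were called higher more often than the tested genes as a whole. Of 49 small subunit assembly genes tested, 25 rose in anterior cells and 0 fell, with a median log2 fold change of 0.26 and 48 values above 0. Of 53 large subunit assembly genes, 24 rose and 1 fell, with a median of 0.25 and 52 above 0. Of 17 genes of RNA polymerase I and its factors, 7 rose and 0 fell, with a median of 0.13. The counts of 0 were also 0 at an unadjusted p under 0.05 in edgeR and among the calls of DESeq2 and limma-voom. Over all genes tested, 10.7% rose and 12.3% fell; the difference between these lists and the members was not tested. Without anterior 2 the risers were 10 of the small and 5 of the large subunit assembly genes, and without anterior 1 they were 16 and 13. Of the polymerase I genes, 3 rose without anterior 1 and 3 without anterior 2.

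Nmd3 and Rrp9 had the largest called rises of the 2 assembly lists. Nmd3, the export adaptor of the large subunit, measured 59.5 and 63.3 CPM in anterior cells against 40.4 and 41.4 in central cells, which gave a log2 fold change of 0.59 ± 0.083 (SE; edgeR adjusted p 0.00142). Rrp9, a component of the U3 particle, measured 46.7 and 51.3 CPM against 34.2 and 34.6, a log2 fold change of 0.51. Fbl, the nucleolar methyltransferase fibrillarin, measured 193 and 194 CPM against 162 and 161, a log2 fold change of 0.26. None of these genes overlapped between groups, and edgeR adjusted p was 0.0045 for Rrp9 and 0.015 for Fbl. Polr1b, the second largest polymerase I subunit, measured 78.8 and 80.3 CPM against 50.5 and 61.4, a log2 fold change of 0.51 (adjusted p 0.00748). Nop53, which acts in late large subunit assembly, was the 1 gene of these lists that fell, at 123 and 120 CPM against 158 and 140 (log2 fold change -0.29, adjusted p 0.0247), a call lost without anterior 1, anterior 2 or central 1.

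**Figure D5:**
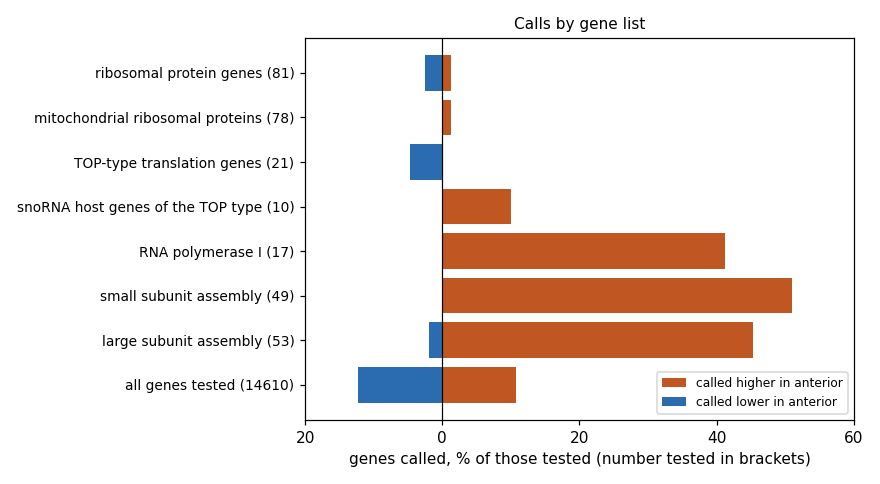
Percentage of tested genes called higher (right, orange) or lower (left, blue) in anterior cells, by gene list, with the number tested in brackets. Lists of ribosomal proteins and TOP-type genes lie below the level of all genes, and assembly and polymerase I lists lie above it on the higher side.

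Other genes of the translation machinery and the transcripts that host snoRNAs are given beside the same shares of all genes, 10.7% higher and 12.3% lower. Of 21 translation genes with TOP-type mRNAs, 1 fell and 0 rose, with a median of -0.01. At an unadjusted p under 0.05, 3 fell and 3 rose, and limma-voom called 3 lower and 1 higher. The gene called by edgeR was Eef1g, a subunit of the elongation factor complex, at 936 and 948 CPM against 1116 and 1071 (log2 fold change -0.22, adjusted p 0.0348). That call was lost without anterior 1, anterior 2 or central 1. Of 78 mitochondrial ribosomal protein genes, 1 rose (Mrps30, log2 fold change 0.26, adjusted p 0.0374) and 0 fell, with a median of 0.09 and with 12 higher and 2 lower at an unadjusted p under 0.05. The call of Mrps30 was lost with library size alone (adjusted p 0.0714), with upper-quartile factors (0.0684), and without anterior 1, anterior 2 or central 2. Of 10 snoRNA host genes with TOP-type transcripts, Snhg1 rose (0.28, adjusted p 0.0176) and 0 fell, with 1 lower at an unadjusted p under 0.05. The call of Snhg1 was lost without anterior 1 or anterior 2. Of 3 tested genes for ribosomal proteins with other names, none was called, with Fau and Rack1 at log2 fold changes of -0.19 and -0.06. At an edgeR unadjusted p under 0.05, 1 of the 3 was lower. In edgeR 1 was called lower with upper-quartile factors and 1 with length and GC offsets. Of 7 tested ribosomal protein pseudogenes by symbol, none was called by edgeR, DESeq2 or limma-voom, with 1 at an unadjusted p under 0.05.

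Of 16 growth control genes, 3 rose (18.8%, against 10.7% of all genes) and 1 fell (6.25%, against 12.3%). More of these genes rose without central 2, and the share of all genes called in that fit is not given here. The transcription factor gene Mycn measured 201 and 196 CPM in anterior cells against 90.1 and 88.6 in central cells, a log2 fold change of 1.15 ± 0.064 (SE). Myc measured 9.62 and 7.02 CPM against 29.6 and 29.6, a log2 fold change of -1.83 ± 0.16 (SE). The groups did not overlap for either gene. Larp1 and Larp4, whose proteins bind TOP mRNAs and poly(A) tails respectively, rose by 0.34 and 0.36 on the log2 scale. Of 19 tested p53 targets, 4 rose (21.1%) and 6 fell (31.6%), with Pmaip1 at a log2 fold change of 1.94 and Cdkn1a at -3.54.

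Promoters of the members carried some short motifs more often than promoters in general. RefSeq promoter windows (GRCm38.p6, 250 bases before to 50 after the start) were found for 65 of the 86 members, in 77 windows, among 32851 windows in all. Searched on both strands, CCGGAAG, the core of ETS factor sites, was present in 35.1% of the member windows and 8.86% of all windows. The pyrimidine run CTCTTTC was present in 27.3% against 8.16%, and AAGATGG, the core of YY1 sites, in 15.6% against 6.34%. TATAAA was present in 10.4% against 13.6%. These shares are a description, with no test. Members with a CCGGAAG match had a median log2 fold change of -0.09 (24 tested), and those without had -0.10 (37 tested). A match is a run of letters and no sign of binding.

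The 60 bases before to 20 after the start are shown for the 2 members that fell, for the Rpl22 and Rps27 paralogs, and for Rpl38, with motif matches in capitals. Rpl22l1 has a TATA match, in which 2 overlapping matches on opposite strands run together, and Rps27l and Rpl38 each have an ETS core match. None of the 4 motifs occurs in the stretches of Rps12 and Rpl22. They lie at chr10:23787190-23787269 (- strand) for Rps12, chr4:152325666-152325745 (+) for Rpl22, chr3:28805448-28805527 (+) for Rpl22l1, chr9:66946026-66946105 (+) for Rps27l and chr11:114668520-114668599 (+) for Rpl38.
Rps12: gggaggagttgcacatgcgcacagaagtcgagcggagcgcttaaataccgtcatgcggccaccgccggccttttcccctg
Rpl22: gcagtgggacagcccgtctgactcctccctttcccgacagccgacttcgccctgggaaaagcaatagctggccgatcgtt
Rpl22l1: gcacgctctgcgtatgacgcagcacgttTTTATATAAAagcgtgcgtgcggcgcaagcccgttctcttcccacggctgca
Rps27l: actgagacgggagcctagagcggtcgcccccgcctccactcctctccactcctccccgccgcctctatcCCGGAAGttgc
Rpl38: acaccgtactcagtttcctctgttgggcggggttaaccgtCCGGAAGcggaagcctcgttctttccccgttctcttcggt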

How the data were processed

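The authors deposited raw whole-number counts per gene symbol for 4 libraries, not normalized. STAR 2.7.9a, HTSeq, DESeq2 3.16 and build mm10 are named per the submitters' processing notes, with no role stated; annotation, strand setting and treatment of multi-mapping reads are not given in the sources used here. Between 72.8% and 75.6% of counts from 1 to 10 were even, so both mates of a pair may have been counted, and a count overstates fragments.

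Counts were tested with edgeR 4.0.16 (R 4.3.3): filterByExpr defaults (14610 genes), TMM scaling, quasi-likelihood F test, Benjamini-Hochberg adjustment over all genes tested, threshold 0.05, with 2 residual degrees of freedom. Each SE is the size of the log2 fold change over the square root of its F statistic. Floors cover counting error only and treat each count as a separate fragment, so they are too low if both mates were counted. Alternatives used limma 3.58.1 and DESeq2 1.42.0, and tables were made with Python 3.11.15 and pandas 2.3.3. Coding sequences came from GENCODE M21 and promoters from RefSeq.

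The members and lists were chosen with earlier results of these data known. Named members were called members with a mean of at least 5 CPM and no overlap (up to 5 each way), a list of members with known roles, and members removed by the filter; from each pathway list, the called genes with the largest rise and fall. Fbl, Larp1, Larp4, Rpl41, Rpl34, Rpl32l, Rpl13a, Rpl9, Fau and Rack1 were named after their values were seen. Some genes and sequences that met these rules are not reported here.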

Additional observations from a re-analysis of the deposited data

How the results depend on the processing

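Outside the fits that leave out a library, the 3 called members were called in all 14 alternatives. DESeq2's Wald test called 5 members (4 lower) and no filter on low counts called 6 (5 lower). The share of all genes called is given for the main fit alone. Alternatives added after seeing the data were length and GC offsets, with 10 members called (2 higher, 8 lower), the same with a replicate block, with 16 (2 higher, 14 lower) and 116 pathway genes against 74, and removal of Rn45s, with 3. With a replicate block alone, 3 members (1 higher, 2 lower) and 81 pathway genes were called, and Eef1g was lost (adjusted p 0.057). Same-numbered libraries hardly deviated together, with a Pearson correlation of 0.0426 over all genes and 0.068 over the members. Anterior 1 lay below anterior 2 for 77 of 81 members, whereas central 1 lay above central 2 for 77 of 81. The replicate block lowered edgeR's common coefficient of variation from 0.111 to 0.0906. Whether the numbers mark pairs was not settled, and the main fit does not take them as pairs because the labels state none.

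Leaving out each library gave 0 to 32 members called, 0 to 3 higher and 0 to 30 lower, 32 to 86 pathway genes, and 10 to 26 small and 5 to 23 large subunit assembly genes higher. Members near 0 changed sign. On the log2 scale these ranged from -0.039 to 0.059 for Rpl3, -0.10 to 0.14 for Rpl36al, -0.014 to 0.074 for Rpsa, -0.15 to 0.25 for Rpl38, -0.19 to 0.018 for Rpl24, -0.24 to 0.52 for Rps27, -0.26 to 0.024 for Rpl22l1, -0.13 to 0.0085 for Rps4x, -0.0073 to 0.24 for Rpl39 and -0.024 to 0.14 for Rps4l. Library size alone gave -0.024 for Rpl3, -0.0098 for Rpl36al and -0.0043 for Rpsa. Upper-quartile factors gave -0.031 for Rpl3, -0.015 for Rpl36al, -0.011 for Rpsa and -0.0041 for Rpl38, and a mean count of at least 50 gave -0.0077 for Rpl3. The cause of these changes was not tested. Counts under 100 limit Rpl34, Rps27 and Rpl32l.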
